A study of Mus musculus with 2 samples.

Results

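The metallothioneins and the best known genes that sense and move zinc were followed in mIMCD3 cells after stimulation with the hormone FGF23. This established line of epithelial cells derives from the inner medulla of the mouse kidney, where the collecting ducts end. The 8 genes were Mt1, Mt2, Mt3, Mt4, Mtf1, Slc30a1, Slc30a2 and Slc39a4, and every non-control spot that the array annotation assigns to one of them was used. This gave 11 probes of 55681 on the array, each printed as 1 spot. The stimulated group was treated with FGF23 at 10 ng/mL for 4 h and the control group was the same line without FGF23, both grown in serum-containing medium. Both RNAs were hybridised together on each of 2 arrays with exchanged dyes. Per the labels, the FGF23 RNA carried Cy3 on array 1 and Cy5 on array 2, which fixes the sign given to each array. Separate cultures or extracts are not named for the arrays, so the spread between them may be technical. The group was chosen by the response of Mt1 and Mt2 in these same arrays, the higher log2 ratio of FGF23 over unstimulated RNA. Their FGF23 ratios are therefore given as descriptions. Where limma's calls over all genes include a member, the call rests on the values that led to the choice and supports nothing further.

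Metallothioneins are small, cysteine-rich proteins that bind zinc, copper and cadmium and keep free metal low in the cell. Mt1 and Mt2 are made in most tissues, including the kidney tubule, and are strongly induced by metals, glucocorticoids and other stresses, whereas Mt3 is known mainly from brain and Mt4 from stratified squamous epithelium. The zinc-sensing transcription factor Mtf1 binds metal response elements (MREs) in the promoters of Mt1, Mt2 and the zinc exporter gene Slc30a1. Slc30 proteins move zinc out of the cytosol, Slc30a1 across the plasma membrane and Slc30a2 into vesicles, and Slc39 proteins such as Slc39a4 move it in.

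Start-site sequences of Mt1 and Mt2, the members whose signal was higher with FGF23, are shown first because MREs are the known regulatory sites of these genes. RefSeq sequences (GRCm38.p6) were at hand for 7 of the 8 genes, all but Slc39a4, as windows from 250 bases before to 50 bases after the annotated start. Capitals mark MRE core matches, searched as TGCACNC or TGCGCNC on both strands. The 250 bases before the start are at chr8:94178839-94179088 for Mt1 and chr8:94172368-94172617 for Mt2, both on the plus strand. The third line gives the first 30 bases after the Mt1 start, at chr8:94179089-94179118, which hold further matches.
Mt1 upstream: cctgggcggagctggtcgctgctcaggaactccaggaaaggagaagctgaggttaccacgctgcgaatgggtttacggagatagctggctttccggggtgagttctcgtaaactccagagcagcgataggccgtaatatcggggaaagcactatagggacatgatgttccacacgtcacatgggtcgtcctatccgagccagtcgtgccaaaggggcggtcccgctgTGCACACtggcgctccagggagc
Mt2 upstream: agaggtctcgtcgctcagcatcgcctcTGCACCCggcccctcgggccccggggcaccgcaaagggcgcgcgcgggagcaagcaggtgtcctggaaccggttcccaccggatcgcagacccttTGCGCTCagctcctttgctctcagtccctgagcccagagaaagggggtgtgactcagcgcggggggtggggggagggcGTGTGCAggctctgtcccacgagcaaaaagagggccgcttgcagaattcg
Mt1 after the start: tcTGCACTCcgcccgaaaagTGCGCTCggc

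The Mt1 window held 3 MRE core matches, beginning at bases -23, 3 and 21 counted from RefSeq's annotated start, where 1 is the first annotated base. Other sources may place the Mt1 start elsewhere, which would shift these positions and the window, and so could change the number of matches. The Mt2 window held 4, beginning at -223, -128, -50 and 5. Among 32851 RefSeq windows of the same length, 25.7% held at least 1 match, 1.97% at least 3 and 0.517% at least 4. At least 2 stood in 7.11% of windows. Slc30a1 and Slc30a2 held 2 each, Mt3 and Mt4 held 1 each, and the Mtf1 window had no such letters. The hypoxia response core ACGTG or GCGTG, searched on both strands, had 2 matches each in Mt1, Mt2 and Slc30a2 and 1 in Slc30a1, and 20.6% of all windows held at least 2. In Mt2 the hypoxia core match at -52 overlaps the MRE match at -50. The antioxidant response core TGACNNNGC occurred once in Mt2 and once in Slc30a1, against 12.4% of all windows. These matches describe letters in a window and are not measured binding sites.

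The probes read other parts of the genes. The last 30 bases of the 60-base Mt1 and Mt2 probes are printed because the Mt1 probes gave different values, and capitals mark the polyadenylation signal letters AATAAA. A_66_P111660, called the bright Mt1 probe here and assigned to the curated transcript of Mt1, lies at chr8:96704165-96704224 on mouse build mm9, A_52_P423810, assigned to a predicted Mt1 transcript, at chr8:96703844-96703903, and the Mt2 probe at chr8:96697371-96697430.
Mt1 A_66_P111660: gtacgtgaatAATAAAagcctgtttgagtc
Mt1 A_52_P423810: cggaggccattgtattgtctcggggacaga
Mt2 A_51_P246317: ctcgttctccacaactttttctataaagca

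The starts of the Mt1 probes are 321 bases apart. Over the 10 pairs of metallothionein probes, the longest run of identical bases was 4 to 8 bases, and the best ungapped placement matched 18 to 25 bases of 60. The bright Mt1 probe and the Mt2 probe shared a run of 7 bases. Where the probes lie relative to exons was not analysed here.

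Mt1 and Mt2 RNA was higher with FGF23 on both arrays, by 1.75-fold and 1.72-fold on average. In RNA of a whole culture, more cells with a transcript and more of it per cell cannot be told apart. On array 1 the bright Mt1 probe gave a mean spot signal of 9322 scanner units for FGF23 (Cy3) and 13271 for unstimulated cells (Cy5). On array 2 it gave 23615 for FGF23 (Cy5) and 5316 for unstimulated cells (Cy3). The local background was between 36 and 41 units in these channels. The Cy5 signal was the higher one on both arrays before dye normalization, so the raw ratios of a single array do not show the direction. After background correction and loess normalization of the dyes, the log2 ratio of FGF23 over unstimulated was 0.64 on array 1 and 0.98 on array 2, a mean of 0.81 ± 0.24 (SD, n = 2 arrays).

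The single Mt2 probe gave 4496 units for FGF23 and 5761 for unstimulated cells on array 1. On array 2 it gave 10450 for FGF23 and 2684 for unstimulated cells. Its log2 ratio was 0.74 on array 1 and 0.82 on array 2, a mean of 0.78 ± 0.058 (SD, n = 2 arrays). Mt1 thus had the wider spread of these genes, and with this normalization both were above 1.5-fold on either array. Median centring without loess gave -0.14 for Mt1 and 0.016 for Mt2 on array 1, and 1.72 and 1.52 on array 2, with means of 0.79 and 0.77.

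**Figure D1:**
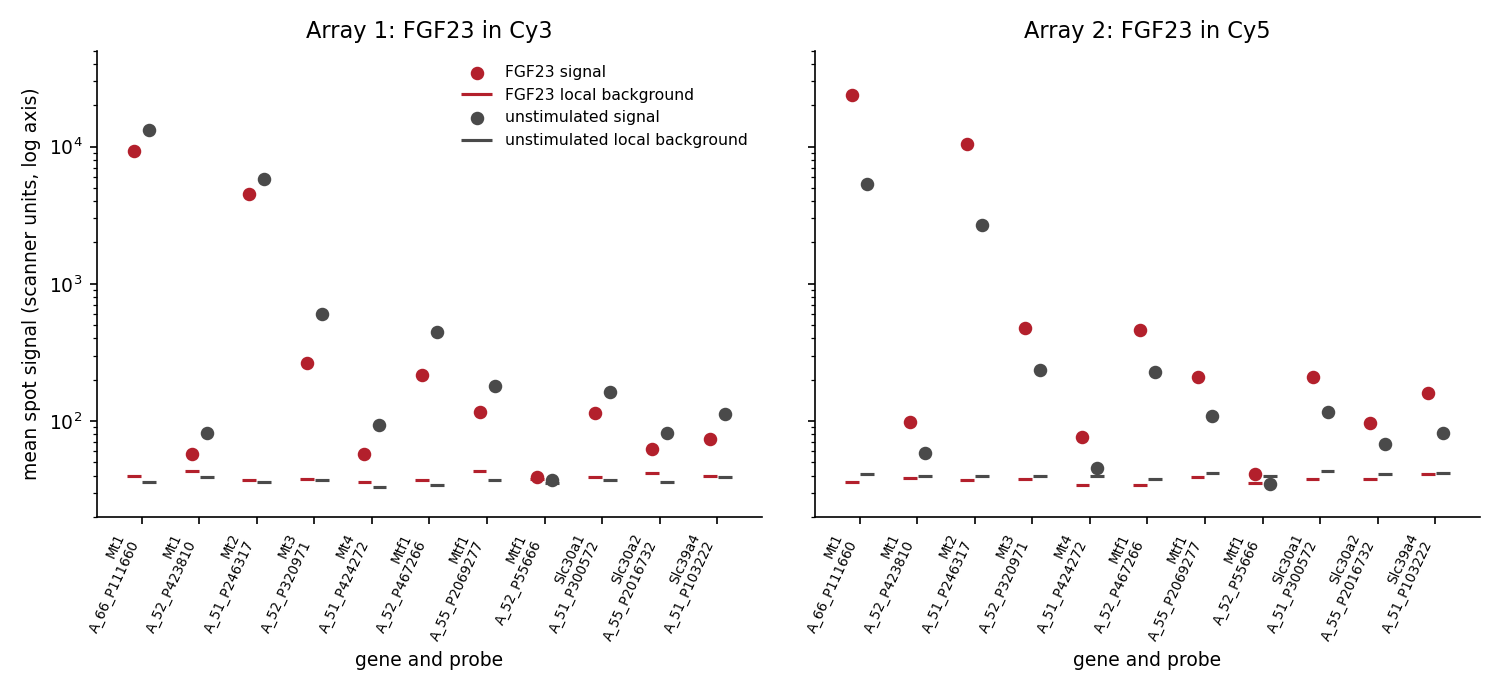
Mean spot signal (points, log axis, scanner units) and local background (short lines) of the 11 probes, for FGF23 (red) and unstimulated RNA (grey), on array 1 (left) and array 2 (right). The Cy5 channel is the brighter one for Mt1 and Mt2 on both arrays, at 13271 and 23615 units for Mt1, and A_52_P55666 of Mtf1 sits at the background.

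The same contrast was read without any dye normalization by comparing each dye with itself across the arrays. The background-subtracted log2 ratio of FGF23 over unstimulated RNA for Mt1 was 0.86 within Cy3 and 0.75 within Cy5, after centring on the median of all kept probes in that dye. For Mt2 it was 0.80 within Cy3 and 0.78 within Cy5. Without the centring Mt1 had 0.82 within Cy3 and 0.83 within Cy5. These are the same 4 intensities per probe in another arrangement, not a further measurement. The dye term itself, the mean log2 ratio of Cy5 over Cy3 left after loess, was 0.17 for the bright Mt1 probe and 0.041 for Mt2, beside an SD of 0.10 over 19220 genes. Each dye order was used on a single array, so this term and the SD between arrays come from the same difference. The SDs given here therefore hold the dye bias of each probe, which cannot be told apart from other spread.

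The other Mt1 probe, A_52_P423810, did not show the higher level. It gave 57.7 units for FGF23 over a background of 43.5 and 81.1 for unstimulated cells over 39 on array 1. On array 2 it gave 98.9 for FGF23 over 38.5 and 58.0 for unstimulated cells over 39.5. All 4 channels carried the scanner's well-above-background flag, but only the FGF23 channel of array 2 reached 2 SD of the local background pixels. The log2 ratio was -0.048 on array 1 and 0.11 on array 2, a mean of 0.031 ± 0.11 (SD, n = 2 arrays), so the arrays had opposite signs. With the scanner software's log ratio this probe had -0.049 on array 1 and 0.46 on array 2, a mean of 0.20. An offset of 0 in normexp gave -0.12 and 0.24. Compared within each dye across the arrays, it had -0.33 in Cy3 and 0.44 in Cy5. At this signal the probe could hardly show a change. The Mt1 probes differed by 0.78 in mean log2 ratio. Among 5361 genes with at least 2 kept probes the median range was 0.072, and 1 gene, Mt1 itself, reached a range of that size. With median centring 1 gene did so. With a normexp offset of 0 the Mt1 range was 0.75, reached by 12 genes, and with the scanner software's own log ratio it was 0.62, reached by 150 genes. These Mt1 ranges hold the ratio of the bright probe, whose higher value led to the choice. The rank of Mt1 among genes by range was therefore partly set in advance. The part of the low signal of A_52_P423810 in the difference between the Mt1 probes was not tested.

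**Figure D2:**
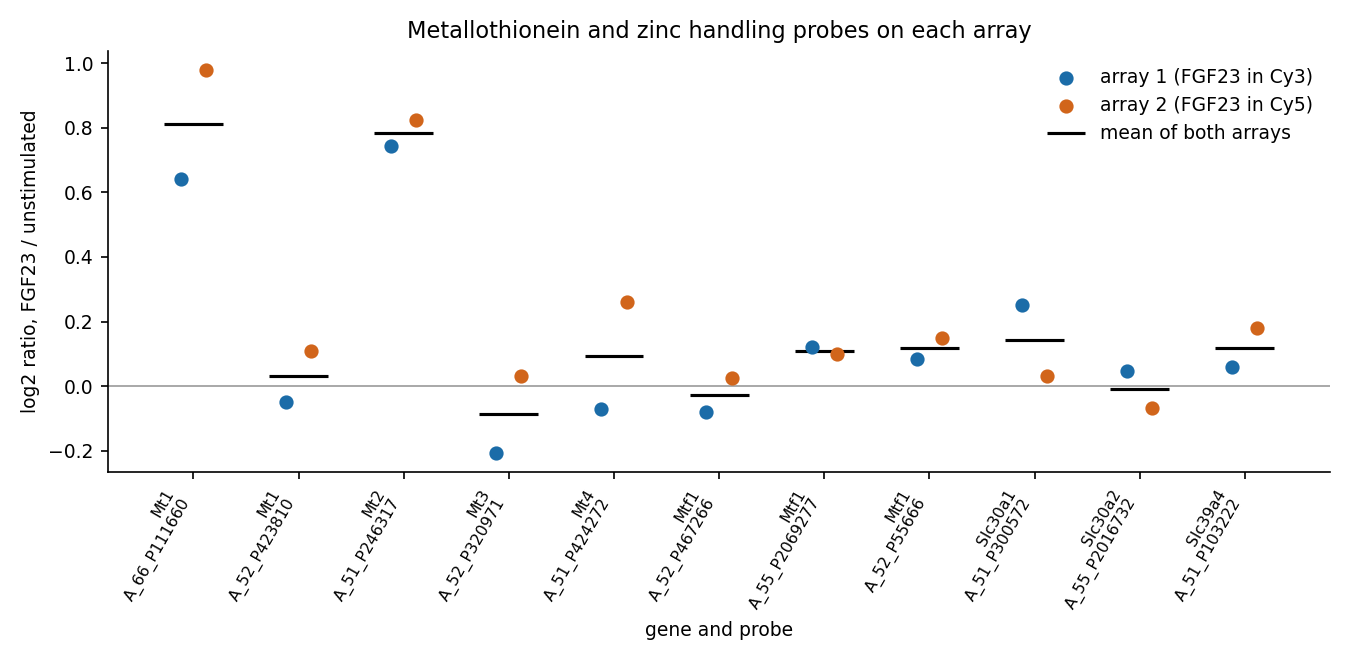
Log2 ratio of FGF23 over unstimulated RNA for each of the 11 probes on array 1 (blue) and array 2 (orange), with the mean as a black line. The bright Mt1 probe (0.64 and 0.98) and the Mt2 probe (0.74 and 0.82), whose higher ratios led to the choice, stand above the others. Those lie between -0.21 and 0.26 on either array.

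Mt3 and Mt4 stayed under 1.5-fold on both arrays. The Mt3 probe gave 265 units for FGF23 and 606 for unstimulated cells on array 1, and 472 and 234 on array 2. Log2 ratios of Mt3 were -0.21 and 0.033 on arrays 1 and 2, a mean of -0.087 ± 0.17 (SD, n = 2 arrays). The Mt4 probe, whose position spans 539 bases of chromosome 8 although it is 60 bases long, gave 57.5 units for FGF23 and 93.6 for unstimulated cells on array 1, and 76.0 and 45.1 on array 2. It was well above background on both arrays with FGF23 but on 1 of 2 arrays in unstimulated cells. Log2 ratios of Mt4 were -0.070 on array 1 and 0.26 on array 2, a mean of 0.094 ± 0.23 (SD, n = 2 arrays). Both genes had opposite signs on the arrays, and Mt4 sat near the background. With the scanner software's log ratio Mt4 had -0.31 on array 1 and 1.24 on array 2, and an offset of 0 in normexp gave -0.15 and 0.76. Compared within each dye across the arrays, Mt4 had 2.13 in Cy3 and -0.61 in Cy5.

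The zinc sensor Mtf1 had 3 probes, all assigned to the same transcript on chromosome 4. A_52_P467266 gave 217 units for FGF23 and 445 for unstimulated cells on array 1, and 458 and 228 on array 2. These gave log2 ratios of -0.080 and 0.025, a mean of -0.027 ± 0.074 (SD, n = 2 arrays). A_55_P2069277 gave 117 and 180 units on array 1 and 208 and 109 on array 2, in the order FGF23 and unstimulated. The log2 ratios of this probe were 0.12 and 0.099, a mean of 0.11 ± 0.015. These kept probes differed by 0.14 in mean log2 ratio, a range that 21.4% of genes with at least 2 kept probes reached. The third probe, A_52_P55666, was not well above background in any of the 4 channels, at 38.8, 36.9, 41.1 and 34.7 units over backgrounds of 35 to 40, and gets no fold.

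Among the zinc transporters, Slc30a1, the exporter known as an Mtf1 target, gave 114 units for FGF23 and 162 for unstimulated cells on array 1. On array 2 it gave 210 for FGF23 and 117 for unstimulated cells. Its log2 ratio was 0.25 on array 1 and 0.033 on array 2, a mean of 0.14 ± 0.16 (SD, n = 2 arrays), so the sign was shared and the spread was as large as the mean. The vesicular exporter Slc30a2 gave 62.4 and 82.3 units on array 1 and 97.3 and 67.6 on array 2, in the order FGF23 and unstimulated. Log2 ratios of Slc30a2 were 0.048 and -0.067, a mean of -0.0097 ± 0.082. The importer Slc39a4 gave 74.4 and 113 units on array 1 and 160 and 81.6 on array 2 in the same order. Its log2 ratio was 0.058 and 0.18, a mean of 0.12 ± 0.087. None of these 3 transporters reached 1.5-fold on either array.

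Of the 11 probes, 10 passed the filter on dim probes, which asked for a signal well above background on both arrays in at least 1 condition. The rule of 1.5-fold or more upwards on both arrays held for 2 of these, beside 0.0297% of 26941 kept probes. They are the bright Mt1 probe and the Mt2 probe, whose higher ratios led to the choice. A further 3 were above 0 on both arrays and 5 had opposite signs, so 5 of 10 had 1 sign on both, beside 46.9% of all kept probes. By gene, 4 of 8 were above 0 on both arrays, beside 23.9% of all genes, and 0 were below, beside 22.3%, with 46.2% of all genes on 1 side. Mt1 and Mt2 are among these 4, so the count is partly set by the choice of the group. In limma's test over 19220 genes, 9 genes were called higher and 0 lower at an adjusted p under 0.05 (500 higher and 251 lower at an unadjusted p under 0.05). The share called higher was 0.0468%, and Mt1 and Mt2 were among them as 2 of the 8 genes followed here, by the same contrast that led to their choice. Neither was called with the scanner software's log ratio (0 genes called), median centring (0 called) or an offset of 0 in normexp (5 called), and Mt1 was not called over averaged probes. The rule of 1.5-fold on both arrays held for 6 genes higher and 0 lower, or 0.0312% higher, while the scanner software's log ratio gave 34 higher and 27 lower. An offset of 0 in normexp gave 15 higher and 1 lower. The same rule applied to Cy5 over Cy3, which holds no treatment effect, counted 17 genes brighter in Cy5 and 2 in Cy3. Over the 8 genes, each by its brightest kept probe, the median log2 ratio was 0.11, beside -0.00068 over all genes. This median includes Mt1 and Mt2, whose higher ratios led to the choice, and so shows no shift of the group.

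**Figure D3:**
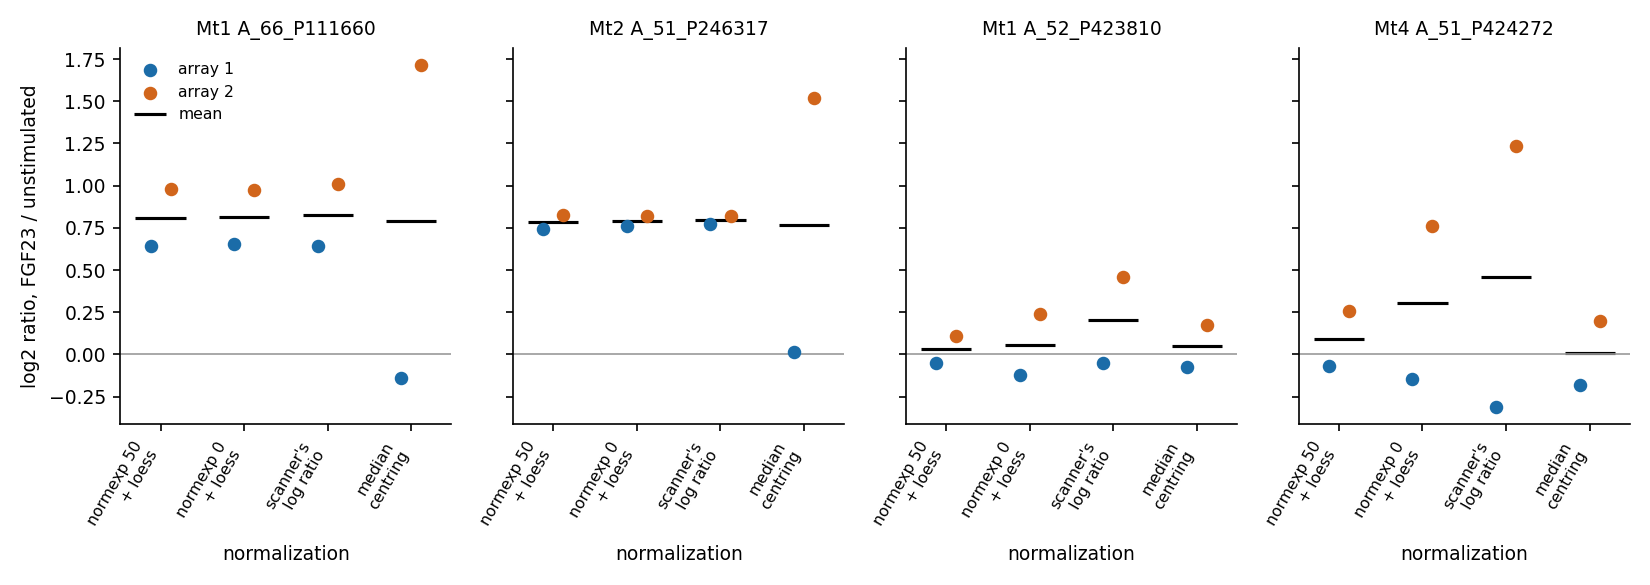
Log2 ratio of FGF23 over unstimulated RNA on array 1 (blue) and array 2 (orange), with the mean as a black line, for the bright Mt1 probe, Mt2, the other Mt1 probe and Mt4 under 4 normalizations. The means of the bright Mt1 probe (0.79 to 0.82) and Mt2 (0.77 to 0.80) change little, while the arrays spread apart with median centring. The values of Mt4 widen with the scanner software's log ratio. All 4 use the same intensities, and a dye bias shared by both arrays cancels in the mean.

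The metallothionein genes lie next to each other on chromosome 8, with probes in the order Mt4, Mt3, Mt2 and Mt1 over 42.1 kb (mm9). The Mt2 probe starts 6.79 kb before the bright Mt1 probe, the Mt3 probe 19.4 kb before that of Mt2 and the Mt4 probe 15.8 kb before that of Mt3. Within 500 kb on either side of this cluster, 14 other genes or unnamed transcripts had a kept probe. Their mean log2 ratios ran from -0.052 to 0.14 with a median of 0.0041. limma called 0 of them higher or lower, a share near the 0.0468% of all genes. At an unadjusted p under 0.05 it counted 0, beside 3.91% of all genes, so few were to be counted among 14. The nearest measured gene on the Mt4 side was Bbs2, a ciliary trafficking gene, at 0.054 ± 0.26, and on the Mt1 side the nuclear pore gene Nup93, at -0.052 ± 0.043 (SD, n = 2 arrays). Ogfod1, an oxygenase gene of the same region, had -0.50 on array 1 and 0.44 on array 2, a mean of -0.029, so its large single-array values had opposite signs.

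**Figure D4:**
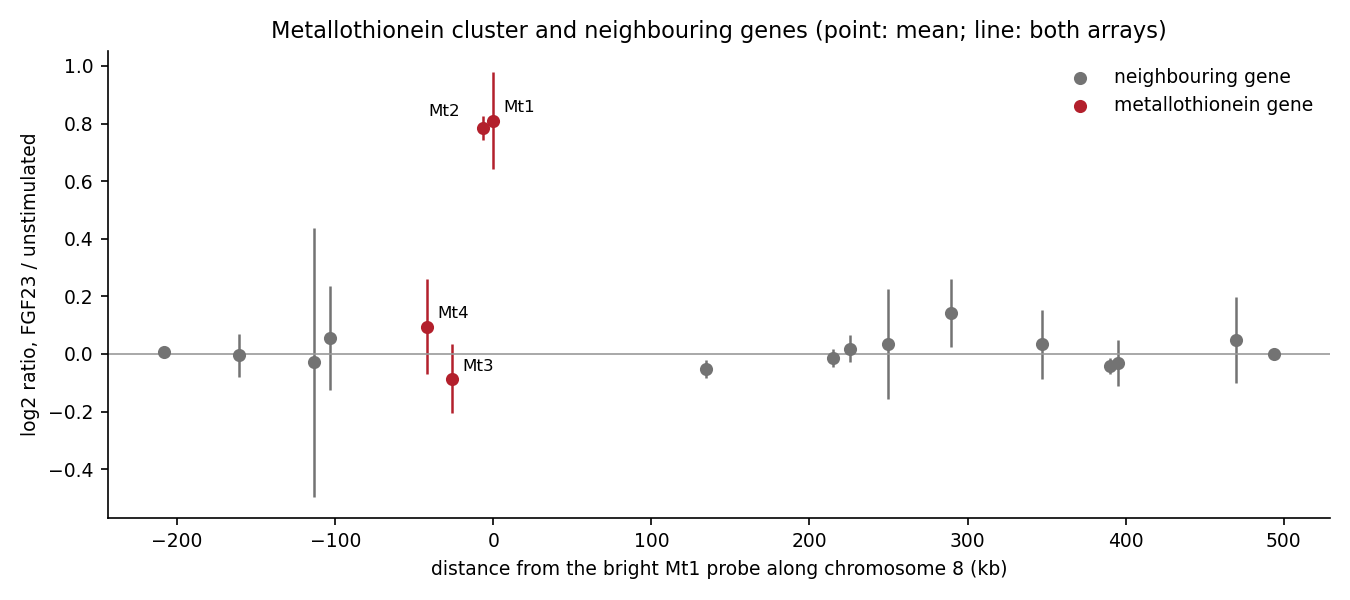
Mean log2 ratio of FGF23 over unstimulated RNA (points) and the values of both arrays (ends of the lines) against distance in kb from the bright Mt1 probe. The 14 neighbours (grey) lie between -0.052 and 0.14, with Mt4 (0.094) within that range and Mt3 (-0.087) below it. Mt1 (0.81) and Mt2 (0.78), whose higher ratios led to the choice, lie above.

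The remaining members of both zinc transporter families were not called, a share near the 0.0468% of all genes. Of the 8 other Slc30 exporter genes 5 were measured, and limma called 0 higher and 0 lower. Slc30a4 had a log2 ratio of 0.029 ± 0.019, Slc30a9 0.022 ± 0.0081, Slc30a6 -0.054 ± 0.046 and Slc30a7 -0.0057 ± 0.14 (SD, n = 2 arrays). Of the 13 other Slc39 importer genes 11 were measured, and 0 were called in either direction. The importer genes at the ends were Slc39a10 (0.11 ± 0.12) and Slc39a1 (0.097 ± 0.21) on the high side, and Slc39a6 (-0.12 ± 0.035) and Slc39a13 (-0.098 ± 0.049), whose product lies in the secretory pathway, on the low side. The medians were -0.0056 for exporters and 0.0028 for importers. At an unadjusted p under 0.05, limma counted 0 genes of either family, beside 3.91% of all genes.

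Genes of copper handling and of the response to metal stress were not called either, a share near the same 0.0468%. Of 8 copper handling genes 7 were measured, with 0 called and a median of 0.0036. The copper chaperone Ccs had 0.056 ± 0.031 and the copper pump Atp7a 0.030 ± 0.021, while the chaperones Atox1 and Cox17 had -0.055 ± 0.048 and -0.042 ± 0.00090. The Cox17 probe was as dim as that of Mt4, at mean log2 intensities of 6.53 and 6.52. The offset compresses ratios of such probes, so the small SD of Cox17 does not show high precision. Of 9 metal stress genes 7 were measured, with 0 called and a median of -0.030. The iron exporter Slc40a1 had 0.099 ± 0.043 and the chaperone Dnajb1 0.019 ± 0.0077, and the glutathione synthesis gene Gclm and the heat shock gene Hspa1a had -0.062 ± 0.019 and -0.10 ± 0.012 (SD, n = 2 arrays). Haem oxygenase Hmox1, which cadmium is known to induce, had -0.0051 ± 0.029. At an unadjusted p under 0.05, limma counted 0 genes of these lists, beside the same 3.91%. Their ratios stayed within -0.22 and 0.13 on either array. The bright Mt1 probe and Mt2 had at least 0.64 with loess, but they were chosen for higher ratios, so this gap was set in advance.

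**Figure D5:**
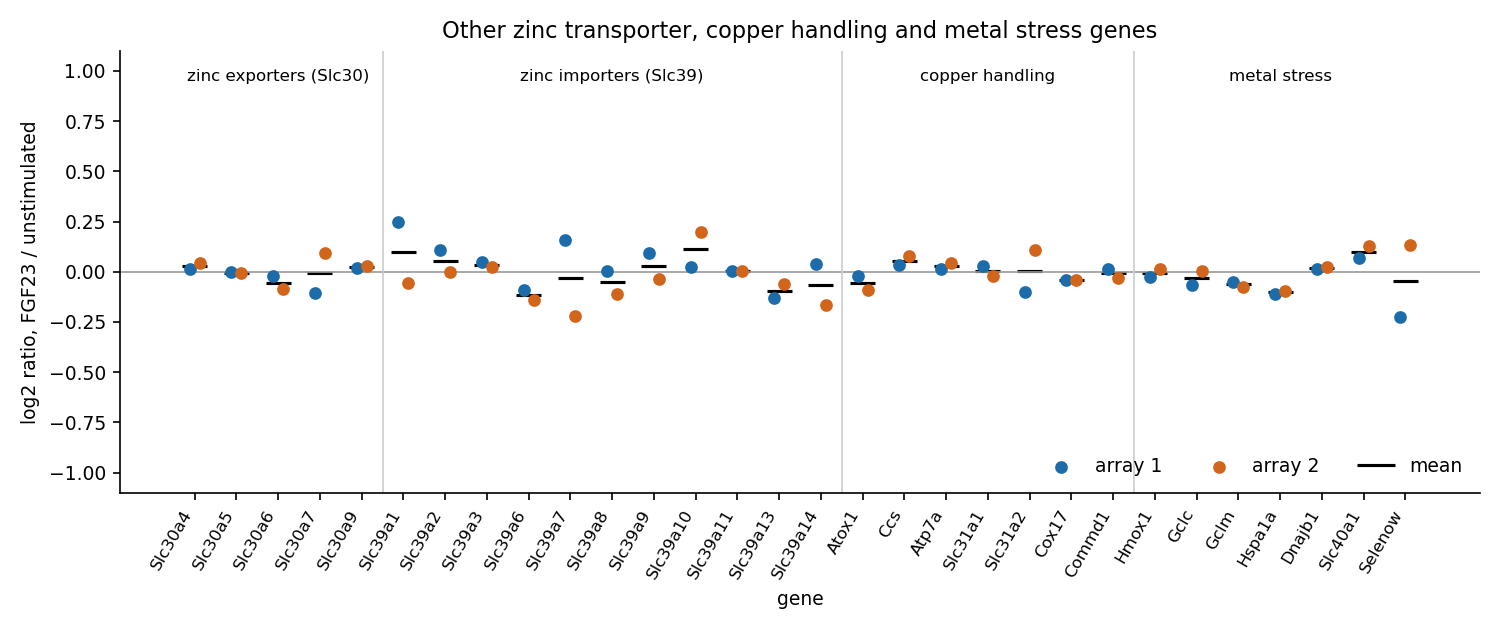
Log2 ratio of FGF23 over unstimulated RNA on array 1 (blue) and array 2 (orange), with the mean as a black line, for the 16 other zinc transporter genes, 7 copper handling genes and 7 metal stress genes that were measured. Means lie between -0.12 and 0.11, and the wider pairs, such as Slc39a7 (0.16 and -0.22), have opposite signs on the arrays.

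The genes whose pair of ratios lay nearest to that of Mt2, by distance over the 2 arrays, were Mgarp (0.73 and 0.84), Selenbp1 (0.67 and 0.66), Mt1, Slc16a3 (0.54 and 0.66) and Pdk1 (0.53 and 0.64). Mgarp is a mitochondrial protein, Selenbp1 a selenium-binding protein, Slc16a3 a lactate exporter and Pdk1 the kinase that turns off pyruvate dehydrogenase. Mt2 was chosen for its higher ratios on these arrays, so the genes nearest to it have high ratios by construction. Mt1 was chosen by the same values. With 2 arrays this likeness rests on 2 values per gene.

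Of 17 collecting duct and tubule epithelium markers 14 were measured, among them Aqp2, Cdh16, Krt8 and Hoxb7, while Avpr2 was not well above background on any array and Aqp3 and Aqp4 were so on 1 of 2. Their mean log2 ratios ran from -0.079 to 0.21, with 0 called by limma, beside 0.0468% of all genes. At an unadjusted p under 0.05, limma counted 2 higher, Slc14a2 and Grhl2 at 0.21 each, and 0 lower, beside 3.91% of all genes either way. Of 20 markers of proximal tubule, macrophages, fibroblasts and endothelium 9 were measured, with mean log2 ratios from -0.082 to 0.16. At an unadjusted p under 0.05 limma counted 0 of them, beside the same share of all genes. The macrophage markers Csf1r, Itgam and Cd68 and the endothelial markers Kdr and Pecam1 were well above background on both arrays, with log2 ratios of 0.16, -0.058, 0.026, 0.033 and -0.029 in that order. So were the proximal tubule markers Lrp2, Cubn and Aqp1 and the fibroblast marker Col1a1, with 0.013, -0.0094, 0.031 and -0.082 in that order. Slc5a2, Hnf4a, Ptprc, Pdgfra, Dcn, Lum, Cdh5 and Tek were not well above background on either array. The part of other cell types in the ratios was not tested. Between 48.2% and 55.2% of spots were well above background in the 4 channels, and no spot was saturated. The number of arrays limits the precision.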

How the data were processed

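Cy3 and Cy5 signals of FGF23-stimulated and unstimulated mIMCD3 RNA were read from 2 dye-swapped arrays. The deposited scanner output held each spot's mean and background intensity on a linear scale. Per the file headers, the authors used Feature Extraction 11.5.1.1. The deposited log10 ratio of Cy5 over Cy3 had been background-subtracted and dye-normalized by that software, per the file headers, and served as an alternative. Mean signals were corrected with normexp (offset 50), and the dyes were normalized by loess, fitted without control spots, in limma 3.58.1 under R 4.3.3. Array 1 was reversed in sign. Control spots and those marked as outliers stayed out of the gene table. Symbols followed RefSeq where the accession matched (28026 of 55681 probes) and the array annotation otherwise. The brightest kept probe stood for a gene. limma's lmFit and eBayes, with Benjamini-Hochberg adjustment over 19220 genes, gave the background and the tests of other genes. The test was also run on simulated data with known changes. No dye term was fitted. Offsets compress the ratios of dim probes.

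The genes and lists were chosen with earlier results of these arrays known. Named were every member and probe, the 2 highest and 2 lowest measured genes of each other list, and the 5 genes nearest to Mt2. Neighbouring genes, markers, Slc39a7 and Hmox1 were named after their values were seen. Alternatives covered normalization, background correction, filter, probe choice and single arrays. For p-values, eBayes moved the spread of each gene between the 2 arrays toward a value drawn from all genes. With unstated cultures this spread may be technical, and it holds dye bias.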

Additional observations from a re-analysis of the deposited data

How the results depend on the processing

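The mean log2 ratio of the bright Mt1 probe ran from 0.79 to 0.82 and that of Mt2 from 0.77 to 0.80 over the scanner software's log ratio, median centring, a normexp offset of 0 and the comparison of each dye across the arrays, the last chosen after seeing the data. These means use the same intensities, and a dye bias shared by both arrays cancels in them, so their small range is largely set by the dye swap. On single arrays the bright Mt1 probe ran from 0.64 to 0.98 and Mt2 from 0.74 to 0.82. With median centring, which leaves the brightness-dependent dye bias in place by construction, the bright Mt1 probe had -0.14 on array 1 and Mt2 had 0.016, while all kept genes had medians of -0.57 and 0.56 on arrays 1 and 2. For the other differences below, the cause was not tested. Genes past limma's test numbered 0 with the scanner software's log ratio, 0 with median centring, 5 with an offset of 0 (neither Mt1 nor Mt2 among them), 17 over averaged probes (Mt2 but not Mt1) and 79 with an intensity trend and robust prior. The count of genes past 1.5-fold on both arrays was 61 with the scanner software's log ratio, 0 with median centring and 16 with an offset of 0. At 2-fold there were 0, and on single arrays 39 to 99. The calls of other zinc transporter, copper and metal stress genes were 0 under every alternative run. Of 53 values of other member probes, 44 stayed within the spread between arrays, 8 moved higher and 1 lower, and 7 changed sign, 5 of them on 1 array alone. The 53 include single-array values, which with 2 arrays always lie within that spread. The count of 44 is therefore partly set in advance and does not measure stability. Low signal limits Mt4, Slc30a2 and the dim Mt1 and Mtf1 probes, since 7 of 11 probes, against 9 by the scanner's flag, reached 2 SD of the local background in all 4 channels.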
